A study of Mus musculus with 64 samples.

Results

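The enteric nervous system was followed through 9 genes in mouse colon after a pinch biopsy: Vip, Gal, Gfap, S100b, Sox10, Elavl4, Uchl1, Tubb3 and Nos1. The genes were taken by symbol, as marks of enteric neurons and of the glia around them, out of 23990 symbols that both parts of the study share. The rule is a list of symbols and uses no measured value, but earlier results of these data were known when the list was drawn up. All 9 symbols were found in every library.

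RNA had been sequenced from the colon of C57BL/6 mice, an inbred strain, in 64 libraries. Forceps made the wounds; a biopsy library holds RNA of a wound bed, and a sham library that of normal tissue, where only a sham procedure was done. Of the time course, 22 libraries were from wounds and 19 from shams, 41 in all: 6 wounds and 4 shams at 1 h, 5 and 5 at 6 h, 6 and 5 at 3 d, and 5 and 5 at 6 d. The other 23 libraries formed a pair of arms whose titles carry the marks abx (5 wounds, 6 shams) and veh (6 wounds, 6 shams). The treatment text is the same for every library and describes a broad-spectrum antibiotic given in the water, with collection at 6 h. In the arms the condition field gives the antibiotic to the libraries whose titles say veh and calls those titled abx controls. The arms are therefore named by title, and no direction of an antibiotic effect is drawn. No transgene or mutant allele is named in the labels, and neither age nor sex of the mice is stated. Nothing says that libraries came from separate animals, so p-values measure the spread between libraries, which may be technical in part.

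Neurons of the gut wall lie in the myenteric plexus, between the muscle layers, and in the submucosal plexus beneath the mucosa. They set motility, secretion and blood flow, and enteric glia wrap their cell bodies and fibres. Vasoactive intestinal peptide (Vip) and nitric oxide, made in neurons by the synthase Nos1, relax gut muscle, and Vip also drives secretion by the epithelium. Galanin (Gal) is a neuropeptide known to rise in peripheral neurons after their axons are cut. Gfap is the intermediate filament of glia and is known to rise in reactive glia. S100b is a calcium-binding protein of glia, and Sox10 is the transcription factor that marks glia and their neural crest precursors. Elavl4 (HuD) is a neuronal RNA-binding protein, Uchl1 (PGP9.5) a deubiquitinase abundant in neurons, and Tubb3 a neuronal tubulin.

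The deposited values are FPKM, fragments scaled to transcript length and to the mapped fragments of the library, so levels of different genes can be set side by side. Depth is unknown, because the files give no read counts. Total FPKM per library ran from 414318 to 522098 in the time course and from 229752 to 266646 in the arms, so both were tested apart and levels are not compared across them. Changes are differences of group means of log2(FPKM + 1), which understate the change of low genes, with the standard error (SE) of the fit. A gene was called at an adjusted p under 0.05 in limma over all genes that reached 1 FPKM in at least 4 libraries. Of the 9 genes, 8 passed that filter in the time course, where Nos1 did not, and 5 in the arms, where S100b, Sox10, Elavl4 and Nos1 did not. Over all genes tested, the median change was -0.18 at 1 h, -0.12 at 6 h, 0.09 at 3 d and 0.11 at 6 d, and -0.12 and -0.17 in the abx-titled and veh-titled arms. In bulk tissue, fewer cells of a type and less RNA per cell cannot be told apart.

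Several libraries stood apart. The veh-titled wound 4 was the lowest of its group in all 9 genes, with Vip at 0.777 FPKM against 5.28 to 21.98 in the other 5. Its summed smooth muscle markers were also low, 138 FPKM against 586 to 2377, while its summed epithelial markers (9798 FPKM) were above the 8155 to 9768 of the others. The sham library 1 at 3 d was the lowest of its group in Vip, Gfap, S100b, Sox10, Elavl4, Uchl1, Tubb3, Nos1 and muscle, and the 1 h wound 6 was the lowest of its group in muscle and in Vip, Gfap, S100b, Elavl4, Uchl1, Tubb3 and Nos1. The 3 d wound 6 was the highest of its group in all 9 genes and in muscle. Among the abx-titled shams, the library with the highest Gal (12.3 FPKM) also had the highest Vip (11.4 FPKM) and Gfap (1.24 FPKM). It had the lowest S100b of that group (0.1003 FPKM). Summed epithelial markers lay between 4886 and 16720 FPKM in all libraries.

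In unwounded time course tissue Vip and Uchl1 were the most abundant of the genes. Vip had group means of 11.5 to 15.4 FPKM in the 4 sham groups, and Uchl1 7.29 to 9.002 FPKM. Tubb3 followed at 2.73 to 3.00 FPKM, Gal at 1.37 to 2.53 FPKM and Gfap at 0.836 to 2.07 FPKM. S100b (0.789 to 0.924 FPKM), Sox10 (0.656 to 0.835 FPKM), Elavl4 (0.370 to 0.605 FPKM) and Nos1 (0.119 to 0.538 FPKM) were at or under 1 FPKM, so their changes rest on low values. In the arms the shams held Vip at 6.14 and 9.80 FPKM, Uchl1 at 4.501 and 5.89 FPKM, and Nos1 at 0.149 and 0.211 FPKM. Gal was above Tubb3 in these shams, at 3.98 and 3.11 FPKM against 1.30 and 1.83 FPKM in the abx-titled and veh-titled ones.

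**Figure D1:**
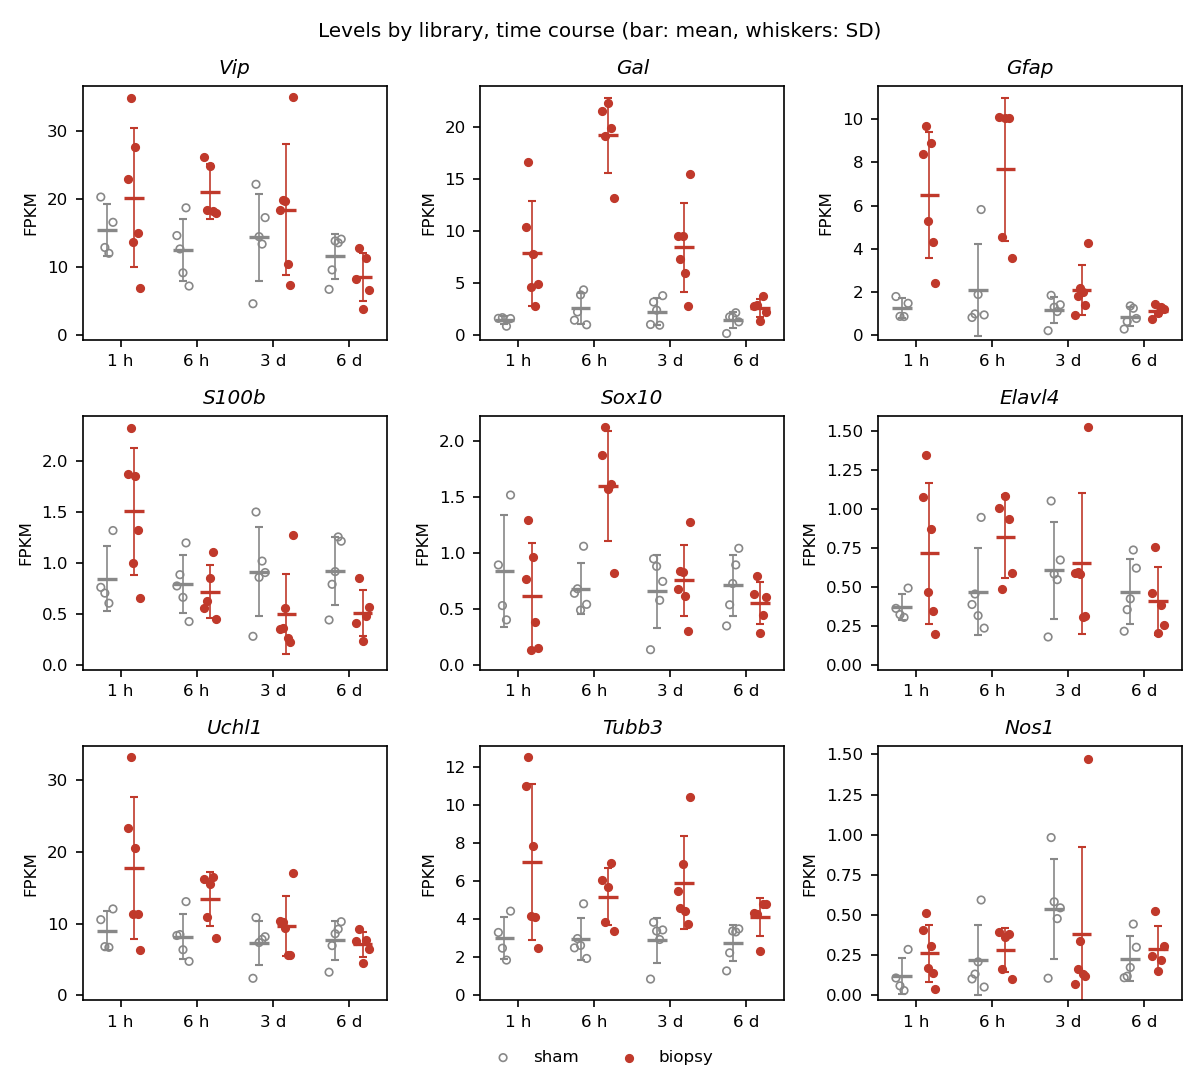
FPKM of the 9 genes in every time course library (points), with group means (bars) and SD (whiskers), shams open and wounds filled, each panel on its own axis. Gal wounds at 6 h lie between 13.2 and 22.3 FPKM, above all shams, and the Gal values of both groups overlap at 3 d and 6 d.

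Galanin showed the largest change of the genes at 1 h, 6 h, 3 d and 6 d and in both arms. It rose in the wound bed at 1 h, had its highest mean at 6 h and was still higher at 3 d. At 1 h the sham libraries held 1.57, 1.64, 0.811 and 1.55 FPKM, and the 6 wounds ran from 2.79 to 16.6 FPKM with a median of 6.29 FPKM. All wounds were above all shams, and the log2 change was 1.71 ± 0.36 (SE, adjusted p = 0.00015). At 6 h the 5 shams held 1.39, 2.19, 3.83, 4.31 and 0.951 FPKM, and the 5 wounds 21.6, 19.1, 22.3, 19.9 and 13.2 FPKM. The groups were again apart, and the change was 2.60 ± 0.36 (adjusted p = 7.85e-08, and 1.71e-08 to 1.52e-05 over the alternatives). At 3 d the 5 shams held 0.976, 3.14, 2.36, 0.906 and 3.75 FPKM, while the 6 wounds ran from 2.77 to 15.5 FPKM with a median of 8.40 FPKM. Only the lowest wound fell among the shams, and the change was 1.51 ± 0.34 (adjusted p = 0.000558). At 6 d the shams held 0.109, 1.71, 1.68, 2.11 and 1.23 FPKM and the wounds 2.73, 2.88, 1.27, 3.68 and 2.21 FPKM, groups that overlap. That change of 0.63 ± 0.36 was not called (adjusted p = 0.152). The 3 earlier calls held in every alternative run.

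The differences between neighbouring times were tested as well. From 1 h to 6 h the Gal change differed by 0.89 ± 0.51 (adjusted p = 0.153), and from 6 h to 3 d by -1.09 ± 0.49 (adjusted p = 0.0613). Neither passed, so the place of 6 h is an order of group means. The later of these passed in 9 of 29 alternatives, among them 6 that leave out a single library (without the 3 d wound 6 it was -1.28, without the 3 d shams 1 or 4 -1.25 and -1.26, without the 6 h wound 6 -1.22, and without the 6 h shams 3 or 4 -1.23 and -1.27).

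In the time course, galanin was also higher in wounds relative to Uchl1 and to Vip of the same library. The ratio of Gal to Uchl1, both in FPKM, had a median of 0.259 in the 6 h shams, with a range of 0.167 to 0.605, and of 1.44 in the 6 h wounds, with a range of 1.21 to 1.74. At 1 h the ratio was 0.122 to 0.242 in shams and 0.248 to 0.761 in wounds, and at 3 d 0.116 to 0.460 in shams and 0.491 to 1.06 in wounds. The groups did not overlap at any of these times. At 6 d they did not overlap either, at 0.0341 to 0.248 in shams and 0.287 to 0.481 in wounds. Set against Vip, Gal gave a similar order, with medians of 0.174 in the 6 h shams and 0.900 in the 6 h wounds. In the 6 h arms the ranges of Gal to Uchl1 overlapped. They were 0.184 to 2.87 in abx-titled shams and 2.24 to 3.50 in wounds, with medians of 0.585 and 2.65. In the veh-titled arm they were 0.124 to 0.897 and 0.291 to 2.44, with medians of 0.416 and 1.90. The abx-titled overlap came from the sham with the highest Gal and Vip of its group (12.3 and 11.4 FPKM). The veh-titled overlap came from wound 4. Within each arm, all other wounds lay above all other shams in this ratio. These ratios were not tested.

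**Figure D2:**
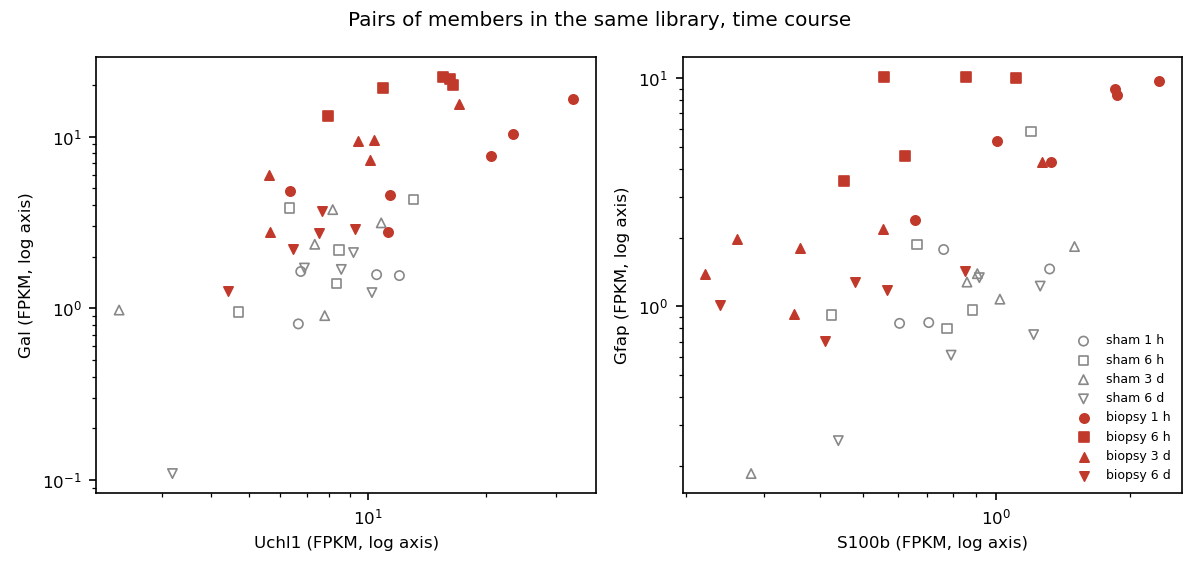
FPKM of Gal against Uchl1 (left) and Gfap against S100b (right), 1 point per time course library, both axes logarithmic, symbols for the times. The 6 h wounds (filled squares) lie above the shams at a like Uchl1 level, with Gal to Uchl1 ratios of 1.21 to 1.74 against 0.167 to 0.605 in the 6 h shams.

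Vasoactive intestinal peptide was not called at any time of the time course. Its wounds at 6 h held 26.1, 18.3, 24.7, 18.2 and 17.9 FPKM and its shams 14.6, 12.6, 9.09, 18.6 and 7.15 FPKM. Sham 4 lay among the wounds, and the change of 0.77 ± 0.37 was not called (adjusted p = 0.0648). It passed in 4 of 18 alternatives, under both other scalings (0.90 with median of ratios, 0.79 with quantile normalization), with only the compared groups in the fit, and without the 6 h sham 4 (0.92). At 1 h the change was 0.23 ± 0.38, at 3 d 0.33 ± 0.35 and at 6 d -0.45 ± 0.37, none called (adjusted p of 0.623, 0.478 and 0.335), and without the 3 d sham 1 the 3 d change was -0.0026. The 6 wounds at 3 d spread from 7.25 to 35.0 FPKM around a median of 19.0 FPKM, and the shams from 4.55 to 22.1 FPKM.

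Promoter sequence is shown for the 2 peptides and for Gfap. In the time course Gal and Gfap were called at 1 h and 6 h and Vip was not, while Vip was called in the abx-titled arm at 6 h. The changes of these genes were not tested against each other. The 250 bases before each start are from RefSeq, build GRCm38.p6, which is mm10. Vip starts after chr10:5638968-5639217 on the plus strand. Gal is on the minus strand, with its upstream window at chr19:3414545-3414794, and Gfap likewise at chr11:102897201-102897450. No annotated exon lies in these 3 windows, and the Gfap window falls inside the longer gene span of GENCODE vM21. Capitals mark matches to the searched letters, on either strand.
Vip: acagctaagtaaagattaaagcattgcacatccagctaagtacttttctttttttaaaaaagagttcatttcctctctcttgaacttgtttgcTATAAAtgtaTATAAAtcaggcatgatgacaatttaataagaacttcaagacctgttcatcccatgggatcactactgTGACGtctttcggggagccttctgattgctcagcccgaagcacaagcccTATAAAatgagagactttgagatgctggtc
Gal: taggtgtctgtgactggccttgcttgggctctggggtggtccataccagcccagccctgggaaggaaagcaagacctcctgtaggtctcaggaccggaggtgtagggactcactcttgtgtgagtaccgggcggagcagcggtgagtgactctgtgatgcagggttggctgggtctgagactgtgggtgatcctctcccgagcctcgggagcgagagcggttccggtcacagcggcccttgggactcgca
Gfap: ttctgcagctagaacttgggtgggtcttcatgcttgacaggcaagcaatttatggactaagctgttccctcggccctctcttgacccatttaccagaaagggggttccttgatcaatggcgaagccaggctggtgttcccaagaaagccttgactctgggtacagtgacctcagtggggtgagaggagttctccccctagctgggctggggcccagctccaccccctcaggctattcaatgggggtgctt
Searched were TGACG (core of the cAMP response element), TGANTCA (AP-1), TTCNNNGAA (STAT) and TATAAA (the core promoter box named after these letters). No match overlaps another. The Vip window held TGACG at position -79 from the start and TATAAA at -157, -147 and -30. The Gal and Gfap windows held none of the 4 patterns. Of 32851 mouse promoters of the same length, 17.8% hold TGACG, 6.75% TGANTCA, 7.02% TTCNNNGAA and 12.4% TATAAA. These matches are descriptions of letters only. A promoter entry was found for 8 of the 9 genes.

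Gfap, the glial filament, rose in the wound bed at 1 h and 6 h. At 1 h the shams held 1.77, 0.848, 0.841 and 1.46 FPKM, and the 6 wounds ran from 2.40 to 9.69 FPKM with a median of 6.83 FPKM. No wound overlapped a sham, and the change was 1.66 ± 0.33 (adjusted p = 5.98e-05). At 6 h the wounds held 10.1, 4.55, 10.1, 10.1 and 3.55 FPKM and the shams 0.797, 0.964, 1.87, 5.81 and 0.916 FPKM. Sham 4, with 5.81 FPKM, lay above 2 wounds, and the change was 1.61 ± 0.32 (adjusted p = 4.77e-05). By 3 d the 6 wounds ran from 0.927 to 4.28 FPKM with a median of 1.89 FPKM, against 0.185 to 1.83 FPKM in shams. The groups overlapped, and the change of 0.51 ± 0.31 was not called (adjusted p = 0.191). The change at 3 d was lower than that at 6 h by a tested difference of -1.10 ± 0.45 (adjusted p = 0.0382, 0.00373 to 0.126 over the alternatives). This difference was lost in 14 of 29 alternatives, 11 of them with 1 library left out: the 3 d wounds 1 or 5 (-0.98, -1.04), the 3 d shams 2, 3 or 5 (-0.99, -1.07, -1.05), the 6 h wounds 1, 4 or 5 (-0.98, -0.99, -0.99) or the 6 h shams 1, 2 or 5 (-0.96, -0.99, -0.98).

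S100b was not called at any time. Its 1 h wounds ran from 0.655 to 2.33 FPKM with a median of 1.59 FPKM, and the shams held 0.761, 0.705, 0.606 and 1.32 FPKM. That change of 0.42 ± 0.18 missed the threshold (adjusted p = 0.0518) and passed in 6 of 17 alternatives, without the 1 h wound 3 or 6 (0.47, 0.53), without the 1 h sham 5 (0.53), under both other scalings, and with the replicate number as a block. At 6 h the wounds held 0.559, 0.623, 0.853, 1.11 and 0.453 FPKM and the shams 0.775, 0.886, 0.663, 1.20 and 0.425 FPKM, groups that cover the same range (-0.06 ± 0.18, adjusted p = 0.795). At 3 d and 6 d the changes were -0.35 ± 0.17 and -0.34 ± 0.18 (adjusted p of 0.0956 and 0.115). The 3 d value passed without the 3 d wound 6 (-0.48) or the 3 d sham 1 (-0.49), with the block (-0.48) and under quantile normalization (-0.53). In the same libraries the ratio of Gfap to S100b had medians of 1.30 in shams and 4.32 in wounds at 1 h, and of 2.15 and 9.05 at 6 h. Its ranges at 6 h were 1.03 to 4.85 in shams and 7.30 to 18.1 in wounds.

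Sox10 rose at 6 h and was not called at the other 3 times. The 6 h wounds held 1.87, 2.12, 1.57, 1.61 and 0.816 FPKM and the shams 0.639, 0.679, 0.488, 1.06 and 0.540 FPKM. Only wound 6 fell among the shams, and the change was 0.61 ± 0.18 (adjusted p = 0.00344), a call that held in all 17 alternatives. At 1 h the change was -0.20 ± 0.19 (adjusted p = 0.381). The difference between both times was 0.81 ± 0.26 (adjusted p = 0.0103), and it was lost with the replicate number as a block (0.71, adjusted p = 0.0548, the highest over the alternatives, whose lowest was 0.00301). The 1 h wounds ran from 0.134 to 1.29 FPKM with a median of 0.574 FPKM, and the 1 h shams held 0.892, 0.529, 0.402 and 1.52 FPKM. At 3 d and 6 d the changes of 0.09 ± 0.17 and -0.13 ± 0.18 were not called (adjusted p of 0.711 and 0.579).

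Of the pan-neuronal genes, Tubb3 rose at 1 h and 3 d, and Uchl1 and Elavl4 were not called at any time. Tubb3 wounds at 1 h ran from 2.45 to 12.5 FPKM with a median of 5.98 FPKM, and the shams held 3.29, 2.46, 1.84 and 4.41 FPKM. The groups overlapped, and the change was 0.87 ± 0.31 (adjusted p = 0.0164). It was lost with only the compared groups in the fit, without the 1 h wounds 1 or 2 (0.72, 0.69) and without the 1 h sham 4 (0.72). At 3 d the wounds ran from 3.75 to 10.4 FPKM with a median of 5.02 FPKM, against 0.839, 3.82, 3.36, 2.92 and 3.42 FPKM in shams, a change of 0.85 ± 0.29 (adjusted p = 0.0176). That call was lost without the 3 d wound 6 (0.69), without the 3 d sham 1 (0.60) and with the replicate block (0.69, adjusted p = 0.0632, within 0.0114 to 0.102 over the alternatives). At 6 h and 6 d Tubb3 was not called (0.64 ± 0.30, adjusted p = 0.058, and 0.47 ± 0.30, adjusted p = 0.21). The 6 h value passed in 7 of 18 alternatives, among them those without the 6 h wounds 3 or 6 (0.72, 0.76) or the 6 h sham 4 (0.79).

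Uchl1 wounds at 1 h spread widely, from 6.36 to 33.2 FPKM around a median of 16.0 FPKM, and the shams held 10.54, 6.76, 6.67 and 12.04 FPKM. Wounds 1, 2 and 4 exceeded every sham, and wound 6 lay below all of them. The change of 0.76 ± 0.35 was not called (adjusted p = 0.0652) and was 0.99 and called without wound 6. At 6 h it was 0.67 ± 0.34 (adjusted p = 0.0835), called without the 6 h wound 6 (0.83) or the 6 h sham 4 (0.84). At 3 d and 6 d it was 0.39 ± 0.33 and -0.05 ± 0.34 (adjusted p of 0.349 and 0.92). The annotation places exons of the antisense gene Uchl1os over those of Uchl1, and whether counting used strand is not stated, so reads of both cannot be told apart. Elavl4 was not called at any time, at 0.28 ± 0.17, 0.32 ± 0.17, 0.02 ± 0.16 and -0.06 ± 0.17 from 1 h to 6 d (adjusted p of 0.164, 0.0965, 0.922 and 0.801). It passed at 1 h with quantile normalization (0.39) and with the replicate block (0.45), and at 6 h with median of ratios scaling (0.37) and without the 6 h sham 4 (0.42).

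Nos1 stayed under 1 FPKM in 40 of 41 time course libraries and was left out of the main test. Without the filter its changes were 0.17 ± 0.17 at 1 h, 0.08 ± 0.16 at 6 h, -0.20 ± 0.16 at 3 d and 0.07 ± 0.16 at 6 d, none called (adjusted p of 0.571, 0.849, 0.43 and 0.945). Its exons overlap those of Gm26995 on the other strand, with the same limit as for Uchl1.

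**Figure D3:**
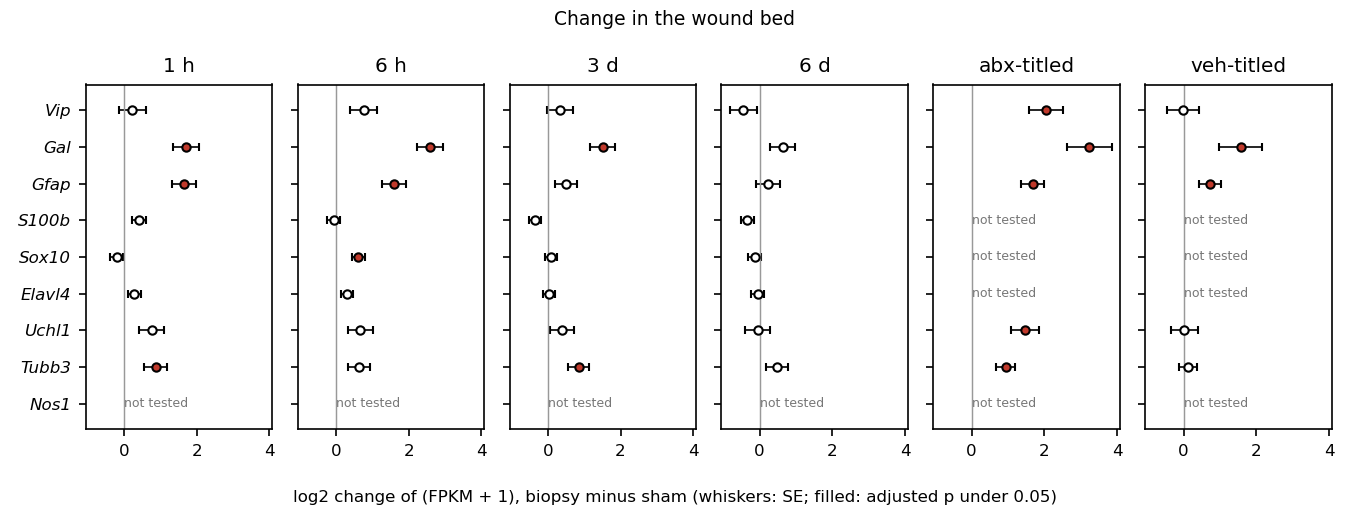
Change of each gene as wound minus sham on the log2(FPKM + 1) scale, with SE whiskers and filled points for an adjusted p under 0.05, at the 4 times and in both arms. Gal is called at 1 h (1.71), 6 h (2.60) and 3 d (1.51) and in the arms (3.24 and 1.57).

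Counted over the genes, 3 of 8 were called higher at 1 h and 3 of 8 at 6 h, where 9.38% and 24.3% of all genes tested were called higher. At 3 d 2 of 8 were higher against 32.1% of all genes, and at 6 d none of 8 against 34.1%, with 3 of the 8 changes at 6 d above 0. None was called lower at any time, where 45.0%, 43.2%, 10.5% and 10.2% of all genes were. Gal and Gfap at 1 h and Gal at 6 h had no wound among the shams, as had 6.42% and 18.6% of all genes in the higher direction, and at 3 d and 6 d no gene had (15.9% and 26.1%). The median change of the 8 was 0.59 at 1 h, 0.66 at 6 h, 0.36 at 3 d and -0.05 at 6 d, beside -0.18, -0.12, 0.09 and 0.11 over all genes. At 3 d the share called is under that of all genes, so Gal and Tubb3 were called there amid many. Between neighbouring times, Sox10 was the 1 of 8 with a higher change at 6 h than at 1 h (30.0% of all genes) and Gfap the 1 of 8 with a lower change at 3 d than at 6 h (11.0%). From 3 d to 6 d no change of the 8 differed (1.84% of all genes in either direction).

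Other genes of enteric neurons were followed as a list of 24, of which 20 were tested. At 6 h 9 rose and 2 fell, at 1 h 3 rose and 1 fell, at 3 d 1 and 1, and at 6 d 2 and none. Of all genes tested, 24.3% rose and 43.2% fell at 6 h, and 9.38% rose and 45.0% fell at 1 h. At 3 d and 6 d 32.1% and 34.1% rose, and 10.5% and 10.2% fell, shares above those of the list. Phox2a, a transcription factor that enteric neurons need to form, rose at 6 h from 0.424 ± 0.193 FPKM (SD, n = 5) to 2.94 ± 1.04 FPKM (SD, n = 5), a change of 1.44 ± 0.13. Ret, the receptor of the GDNF family, rose at 6 h (0.78 ± 0.17), 3 d (1.28 ± 0.17) and 6 d (1.10 ± 0.17), times at which most of the 9 genes were not called. Gap43, a protein of growing axons, rose at 6 h (0.93 ± 0.27), and the adhesion molecule L1cam fell (-0.68 ± 0.09). The median change of the list was 0.43 at 6 h beside -0.12 over all genes, and 0.04 at 3 d beside 0.09.

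Among other transmitters, 5 of 12 tested rose at 1 h and 4 at 6 h, beside 9.38% and 24.3% of all genes, and none fell at either time, when 45.0% and 43.2% of all genes did. Penk, the precursor of enkephalins, rose at 6 h from 6.61 ± 2.10 to 36.5 ± 8.31 FPKM (SD, n = 5 each), a change of 2.32 ± 0.35, and also at 1 h (0.91) and 3 d (0.88). Tac1, the precursor of substance P, rose at 6 h from 7.78 ± 3.78 to 24.9 ± 3.91 FPKM (SD, n = 5 each), a change of 1.63 ± 0.25, and also at 1 h (0.72 ± 0.26) and 6 d (0.99 ± 0.25). Cartpt, which encodes the CART peptide, rose at 3 d by 1.28 ± 0.24, from 0.636 ± 0.361 (SD, n = 5) to 3.17 ± 1.69 FPKM (SD, n = 6). At 3 d 2 of the list rose and 1 fell, and at 6 d 3 rose and 2 fell. Of all genes, 32.1% and 34.1% rose at these times, above the shares of the list, and 10.5% and 10.2% fell.

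Of 3 tested receptors for these peptides, Vipr1, the main epithelial receptor of VIP, fell at 1 h (-0.55 ± 0.08) and 6 h (-0.62 ± 0.08), and by less at 6 d (-0.22 ± 0.08). At 6 h it went from 85.4 ± 2.34 to 55.6 ± 6.83 FPKM (SD, n = 5 each), and Vipr2, found on smooth muscle, fell by 0.40. The 3 d change of Vipr1 was not called in the main test. The 6 d call was lost without the 6 d wound 3 (-0.16) or the 6 d shams 1 or 2 (-0.20, -0.21). In nitric oxide signalling, Nos3, the endothelial synthase, rose at all 4 times (0.49, 1.10, 0.77 and 0.77), and Nos2, the inducible synthase, at 6 h, 3 d and 6 d (0.77, 0.93 and 1.61). The subunits of the nitric oxide receptor, Gucy1a3 and Gucy1b3, fell at 6 h by 1.04 and 0.96.

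Of 6 other glial genes tested, 4 fell and 1 rose at 6 h, where 43.2% of all genes fell and 24.3% rose. Their median change was -0.45 beside -0.12 over all genes. Entpd2, an ATP-degrading enzyme, fell by 0.72, Erbb3, the neuregulin receptor, by 0.57 and the sodium channel Scn7a by 0.45. Ngfr, the low-affinity neurotrophin receptor, rose by 0.67 ± 0.25, a call lost without the 6 h sham 5 (0.59). At 1 h Erbb3 alone fell (-0.58 ± 0.18), where 45.0% of all genes fell. That call was lost under both other scalings and without the 1 h sham 5 (-0.45). At 3 d and 6 d no gene of the list was called. Erbb3 is also made by the epithelium and was at 41.7 ± 7.89 FPKM in the 6 h shams (SD, n = 5), a level above that of each of the 9 genes there.

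Of 9 tested neurotrophic genes, 3 rose and 1 fell at 1 h and at 6 h, 4 rose at 3 d and 3 at 6 d. The shares of all genes that rose were 9.38%, 24.3%, 32.1% and 34.1% from 1 h to 6 d. At 1 h and 6 h 45.0% and 43.2% of all genes fell, above the share of the list. Gdnf, the Ret ligand, rose at 1 h (0.78 ± 0.15) and 6 h (0.73 ± 0.15), as did Lif (0.70 ± 0.16 and 0.90 ± 0.15), a cytokine that acts on neurons and glia. Ntf3 fell at both times (-0.84 ± 0.15 and -0.68 ± 0.14).

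**Figure D4:**
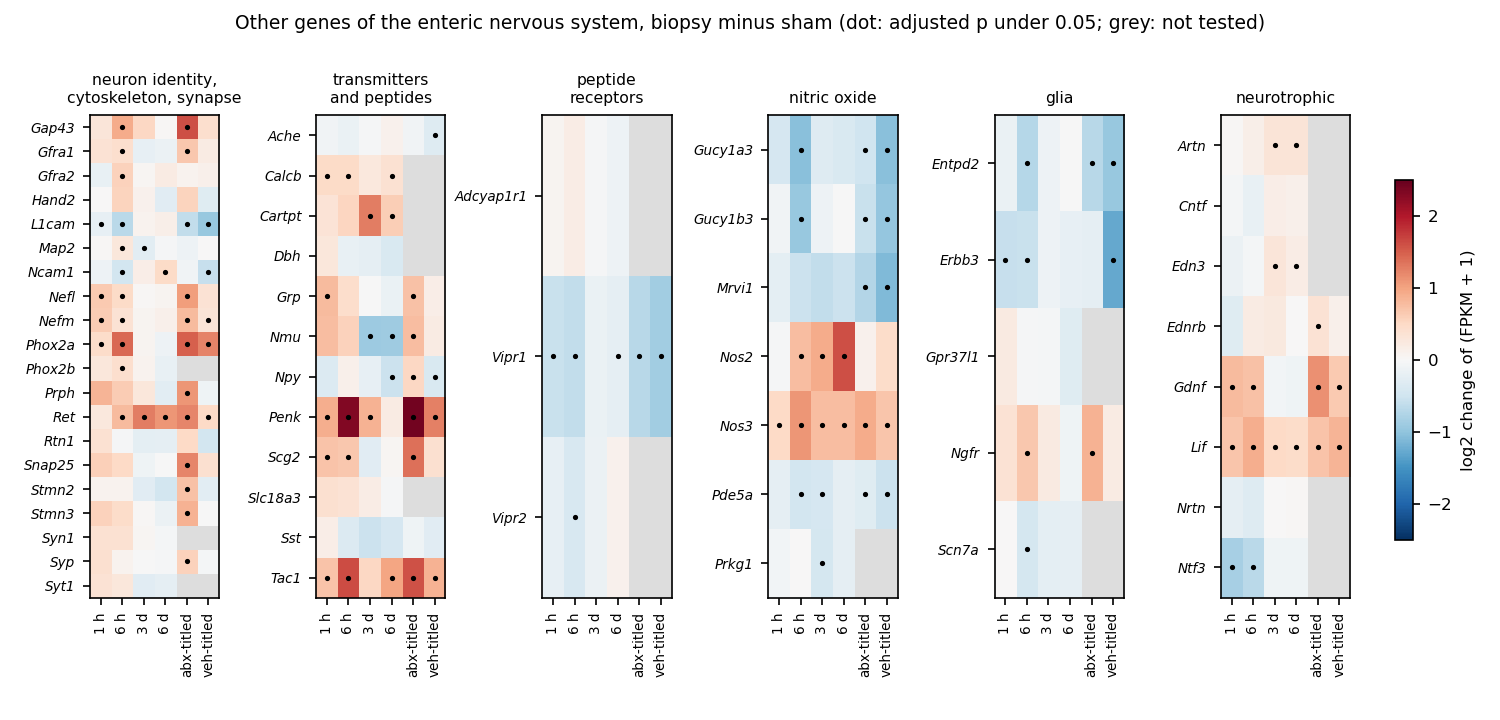
Change of further genes of the enteric nervous system (rows) at the 4 times and in both arms (columns), as wound minus sham on the log2(FPKM + 1) scale by colour, with a dot for an adjusted p under 0.05 and grey for genes not tested. Penk (2.32) stands out at 6 h, and Entpd2, Erbb3 and Scn7a of the glial panel are lower at that time.

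Markers of other tissue layers and cell types were followed at the same times. Smooth muscle genes, which share the deep wall with the myenteric plexus, were not called at 1 h (none of 10), while 3 of 10 fell at 6 h, 9 at 3 d and 4 at 6 d. Of all genes, 45.0% fell at 1 h, 43.2% at 6 h, 10.5% at 3 d and 10.2% at 6 d, so the muscle share was under that of all genes at 1 h and 6 h and over it at 3 d and 6 d. Their summed level was 1677 to 3493 FPKM in shams and 1167 to 4513 FPKM in wounds at 6 h, and 1434 to 3627 against 707 to 1881 FPKM at 3 d. At 1 h it was 2003 to 3796 FPKM in shams and 1019 to 4615 FPKM in wounds. Summed markers of enteroendocrine cells, which also store peptides, were 334 to 459 FPKM in the 6 h shams and 293 to 417 FPKM in the 6 h wounds. This sum joins opposite changes. At 6 h Cck (1.71) and Tph1 (0.39) rose, and Insl5 (-0.83) and Chga (-0.53) were among those that fell. Summed neutrophil markers were at most 2.01 FPKM in any time course sham and 350 to 876 FPKM in the 6 h wounds. Their part in the changes of the neuronal and glial genes was not tested.

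Within groups the 8 tested genes varied together. Over the 41 libraries, the correlation of their deviations from the group means on the log2 scale ran from 0.68, for Gal with Gfap, to 0.95, for Uchl1 with Tubb3, and the median over its partners was 0.76 for Gal and 0.92 for Uchl1. This is a description of genes measured in the same libraries, and why they varied together was not tested. The genes most like Uchl1 across all tested genes were Stmn3 (0.98), Prph (0.98) and Eef1a2 (0.97), and those most like Elavl4 were Kif5a (0.97), Scg2 (0.96) and Chrna3 (0.96). Vip was closest to Stmn3 (0.94), Uchl1 (0.93) and Calb2 (0.91), and Tubb3 to Uchl1 (0.95), Ndrg4 (0.95) and Eef1a2 (0.94). For Gfap they were Htr2b (0.91), Pirt (0.89) and Snap25 (0.87), and for Gal, at lower values, Ahi1 (0.84), Tm4sf4 (0.83) and Syt4 (0.82). S100b lay closest to Adam11, Garnl3 and Spock2 (0.93 each), and Sox10 to Cpe (0.92), Hand2 (0.91) and Cadm4 (0.91).

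In the abx-titled arm, at 6 h, all 5 genes tested rose in the wound bed, where 26.5% of all genes tested were called higher. Gal shams ran from 0.988 to 12.3 FPKM with a median of 2.53 FPKM, and the 5 wounds held 23.5, 61.3, 47.5, 36.4 and 25.2 FPKM. No wound was among the shams, and the change was 3.24 ± 0.61 (adjusted p = 6.51e-05). Vip shams ran from 3.73 to 11.4 FPKM with a median of 5.45 FPKM, and the wounds held 18.9, 39.6, 41.7, 28.2 and 16.7 FPKM. These groups were apart too, with a change of 2.05 ± 0.46 (adjusted p = 0.000451). Gfap shams ran from 0.464 to 1.24 FPKM with a median of 0.843 FPKM, against 2.59, 8.64, 7.40, 5.54 and 2.51 FPKM in wounds, again apart (1.68 ± 0.32, adjusted p = 8.2e-05). Uchl1 and Tubb3 changed by 1.47 ± 0.38 and 0.94 ± 0.26 (adjusted p of 0.00172 and 0.00271), each with wound 2 among the shams. Of all genes, 16.5% had wounds above all shams, as had 3 of these 5. All 5 calls held in every alternative.

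The genes under the filter of the arms were fitted without it. In the abx-titled arm Sox10 rose by 0.75 ± 0.13, Elavl4 by 0.51 ± 0.11 and Nos1 by 0.29 ± 0.11 (adjusted p of 5.99e-05, 0.000658 and 0.0316). Nos1 was 0.0705 to 0.252 FPKM in shams and 0.220 to 0.650 FPKM in wounds, levels at which a failed estimate cannot be told from a low one. S100b was not called, at -0.04 ± 0.09 (adjusted p = 0.905), with 0.1003 to 0.598 FPKM in shams and 0.149 to 0.518 FPKM in wounds.

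**Figure D5:**
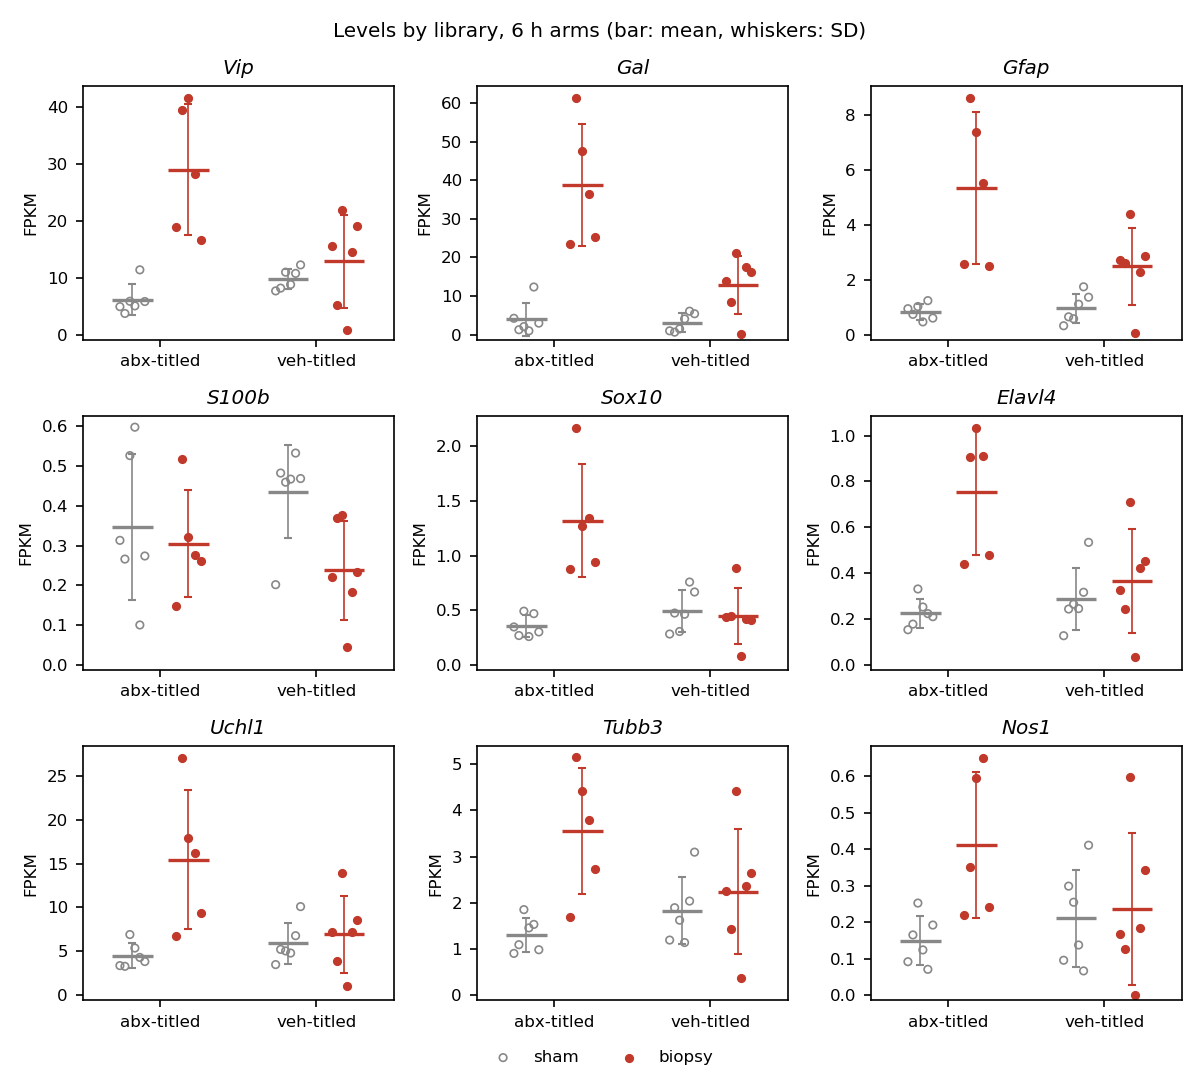
FPKM of the 9 genes in every library of the arms (points), with group means (bars) and SD (whiskers), shams open and wounds filled, each panel on its own axis. The lowest veh-titled wound in every panel is library 4, with Gal at 0.291 FPKM beside 8.38 to 21.1 FPKM in the other 5.

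In the veh-titled arm 2 of the 5 were called higher, Gal and Gfap, where 25.7% of all genes were. Gal shams ran from 0.644 to 6.07 FPKM with a median of 2.78 FPKM, and wounds from 0.291 to 21.1 FPKM with a median of 14.99 FPKM. Wound 4 lay below every sham and the other 5 above them, and the change was 1.57 ± 0.58 (adjusted p = 0.019, 0.000175 to 0.0506 over the alternatives). It was 2.17 without wound 4, and was lost with a pseudocount of 0.1 (1.76) and without sham 2 (1.35). Gfap wounds ran from 0.0530 to 4.39 FPKM with a median of 2.67 FPKM, and shams from 0.324 to 1.74 FPKM, a change of 0.73 ± 0.31 (adjusted p = 0.0376, 0.0005 to 0.147 over the alternatives). Without wound 4 it was 1.04 and called. It was lost in 12 of 19 alternatives, among them the replicate block (0.73, adjusted p = 0.0505) and the fits without wounds 1, 2, 3, 5 or 6 (0.68, 0.69, 0.57, 0.71, 0.67) or shams 1, 2 or 3 (0.62, 0.69, 0.67). No gene had all wounds above all shams, as had 20.9% of all genes.

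Vip was not called in that arm, at -0.02 ± 0.44 (adjusted p = 0.964). Its wounds ran from 0.777 to 21.98 FPKM with a median of 15.1 FPKM, and its shams from 7.70 to 12.3 FPKM with a median of 9.81 FPKM. Of the wounds, 4 exceeded every sham and 2 lay below all of them, and without wound 4 the change was 0.49 and not called. Uchl1 and Tubb3 changed by 0.02 ± 0.37 and 0.12 ± 0.25 (adjusted p of 0.958 and 0.68). Without the filter, S100b (-0.22 ± 0.09), Sox10 (-0.05 ± 0.12), Elavl4 (0.07 ± 0.10) and Nos1 (0.02 ± 0.10) were not called.

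Set against each other, the shams of both arms did not differ in any of the 5 genes at the threshold used, where 12.6% of all genes did in either direction. The largest difference was that of Vip, 0.65 ± 0.44 higher in veh-titled shams (adjusted p = 0.36). Between the wounds, Gal (-1.84 ± 0.61, adjusted p = 0.0442), Vip (-1.43 ± 0.46, adjusted p = 0.0406) and Uchl1 (-1.15 ± 0.38, adjusted p = 0.0462) were lower in the veh-titled arm, 3 of 5 where 7.82% of all genes were lower. For Gal the groups did not overlap, with 23.5 FPKM as the lowest abx-titled wound and 21.1 FPKM as the highest veh-titled one, as for 3.92% of all genes. None of these 3 calls held without veh-titled wound 4, where Gal was -1.24, Vip -0.91 and Uchl1 -0.80. All 3 were also lost without abx-titled wounds 3 (-1.66, -1.29, -0.92), 4 (-1.75, -1.28, -1.06) or 5 (-1.84, -1.41, -1.10) or without veh-titled wound 2 (-1.81, -1.28, -1.05). Gal and Uchl1 were lost without veh-titled wound 1 (-1.95, -1.20), Gal without wound 6 (-1.99) and Uchl1 without wound 5 (-1.20). Without the filter Sox10 was also lower in the veh-titled wounds, by -0.67 ± 0.13 (adjusted p = 0.00345), with 0.0851 to 0.890 FPKM against 0.874 to 2.17 FPKM in the abx-titled wounds. Left without wound 4 as well, a setting chosen after seeing the data, this was -0.59 ± 0.12 (adjusted p = 0.00867).

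The effect of the biopsy was then compared between the arms. No difference passed among the 5 genes, where 3.31% of all genes did in either direction. Vip came closest, with an effect lower by 2.08 ± 0.64 in the veh-titled arm (difference of -2.08, adjusted p = 0.0714). Without veh-titled wound 4 this was -1.56, and without wound 3 -2.30, both called (adjusted p of 0.0458 and 0.0353, the latter the lowest over the alternatives, whose highest was 0.127). Gal, Uchl1, Gfap and Tubb3 differed by -1.67 ± 0.84, -1.45 ± 0.53, -0.95 ± 0.45 and -0.82 ± 0.36 (adjusted p of 0.26, 0.119, 0.226 and 0.195). A p that misses the threshold does not show that the arms responded alike. Without the filter, Sox10 differed by -0.80 ± 0.18 (adjusted p = 0.0288), and without wound 4 as well by -0.72 ± 0.17 (adjusted p = 0.042).

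Wider lists were counted in the arms as well. Of 17 other neuronal genes tested in the arms, 11 rose and 1 fell in the abx-titled wounds, and 3 rose and 2 fell in the veh-titled ones, with median changes of 0.73 and 0.02. Of all genes, 26.5% rose and 43.9% fell in the abx-titled wounds, and 25.7% rose and 49.0% fell in the veh-titled ones, the shares against which the counts of all lists here stand. Phox2a rose in both (1.49 ± 0.14 and 1.25 ± 0.13), as did Penk (2.42 ± 0.38 and 1.25 ± 0.36) and Ret (1.21 ± 0.13 and 0.50 ± 0.13). For Ret the difference between the arms was itself called, at -0.71 ± 0.19 (adjusted p = 0.0382). Among transmitters 6 of 8 rose in the abx-titled arm, and 2 rose and 2 fell in the veh-titled arm. Of 3 glial genes tested, Entpd2 fell in both arms (-0.70 ± 0.06 and -0.96 ± 0.06), Erbb3 in the veh-titled arm (-1.29 ± 0.19) and Ngfr rose in the abx-titled arm (0.87 ± 0.21). Vipr1 fell in both (-0.69 ± 0.08 and -0.88 ± 0.07). Of 10 smooth muscle genes 2 fell in the abx-titled wounds and 6 in the veh-titled wounds, and their summed level was 703 to 1756 FPKM in the former and 138 to 2377 FPKM in the latter. Its part in the neuronal values was not tested.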

How the data were processed

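Poly(A) RNA of 64 colon libraries was made with the RNeasy Mini and TotalScript kits, per the labels' protocols. The authors deposited 1 FPKM value per gene symbol and library, from STAR and Cufflinks on mm10 per the submitters' processing notes, with no versions. Annotation, strand use and depth are not stated there. The arms and the time course, on different scales, were fitted apart.

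From these, log2(FPKM + 1) went into limma 3.58.1 (R 4.3.3; 1 mean per group, all groups of a cohort, mean-variance trend). A gene was tested if 4 or more libraries held 1 FPKM or more: 13285 of 23997 symbols in the time course and 11849 of 23995 in the arms, with 33 and 19 residual degrees of freedom. P-values were adjusted by Benjamini-Hochberg within each comparison, and 0.05 was the threshold. The fit was tested on simulated data. Changes are relative to FPKM totals, and scalings that centre the median move all changes up at 1 h and 6 h.

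The 9 genes and 18 further lists were chosen with earlier results of these data known. Named were all 9 genes, up to 4 called genes of each list with the largest change (2 where none passed), and the 3 genes most correlated with each; some genes are counted in their lists but not reported here. Positions come from GENCODE vM21. The alternatives tried were dropping the filter or raising it to 5 FPKM, adding 0.1 in place of 1 before the log, 2 other scalings, rescaling without small RNA symbols, only the compared groups, the replicate number as a block, and each library left out in turn.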

Additional observations from a re-analysis of the deposited data

Results flagged for a closer look

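In groups of 4 to 10 libraries, the highest or lowest value was set against the gap to its neighbour (Dixon's test at 95%). Of 84 such groups 7 gave a value that stood apart, where chance gives about 1 in 20 if the groups are independent. They are not, since the genes of a library vary together, so this share cannot be read against chance. In the veh-titled wound 4, Gal was 0.291 FPKM and Gfap 0.0530 FPKM, both far under the other 5 wounds. In the 3 d sham 1, Uchl1 was 2.34 FPKM and Tubb3 0.839 FPKM, both under the other 4. The 3 d wound 6 held Elavl4 at 1.53 FPKM, above the other 5. The remaining values were Gal at 0.811 FPKM in the 1 h sham 4 and Tubb3 at 2.33 FPKM in the 6 d wound 3.

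Differences of the biopsy effect between neighbouring times that passed the threshold were those of Sox10, higher at 6 h than at 1 h by 0.81, and of Gfap, at 3 d minus 6 h -1.10.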

How the results depend on the processing

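Gal and Gfap at 1 h and 6 h, Gal at 3 d, Sox10 at 6 h and all 5 calls of the abx-titled arm kept direction and call in every alternative. In all, 1587 of 1788 values of the 9 genes kept both. Low levels and unknown depth limit S100b, Sox10, Elavl4 and Nos1, and a call close to the threshold moved with single libraries; where a call changed, the cause was not tested.

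Counts of genes called higher moved as follows. At 1 h (3) they were 5 with median of ratios scaling and 6 with quantile normalization, and at 6 h (3) 7, 6, and 6 with only the compared groups. In the abx-titled arm (5) they were 8 without a filter, when more genes were tested, and 3 with the 5 FPKM filter, when fewer were. In the veh-titled arm (2) they were 0 with a pseudocount of 0.1, and 1 with no filter, the 5 FPKM filter or only the compared groups. For the 6 h minus 1 h difference (1) the 5 FPKM filter, which Sox10 does not pass, gave 0. Genes called lower went from 0 to 1 at 3 d, 6 d and for 6 h minus 1 h with quantile normalization, and for the difference between the arms without a filter or with median of ratios. Between the wounds of the arms (3) they were 0 with a pseudocount of 0.1 or only the compared groups and 1 without a filter. For 3 d minus 6 h (1) they were 0 with a pseudocount of 0.1, no filter or only the compared groups, and 3 under both scalings.

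Replicate numbers were not taken as pairs in the main fit. Of 29 same-numbered pairs 6 had deviations correlated above 0.1 (-0.28 to 0.25), and 5 biopsies correlated best with their own number. With so few libraries in a group, these values do not exclude pairing. With the replicate block, the count called higher was 6 at 1 h, 1 at 3 d, 1 in the veh-titled arm and 0 for 6 h minus 1 h, and the count called lower 1 at 3 d and 3 for 3 d minus 6 h. The block could not be fitted for the arms against each other.

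Leaving out each library gave 2 to 5 higher at 1 h (5 without wound 6), 3 to 7 at 6 h (7 without sham 4), 1 to 2 at 3 d, with 0 to 1 lower, and 0 to 2 in the veh-titled arm. Between the wounds of the arms 0 to 5 were lower, for the difference between the arms 0 to 1, and for 3 d minus 6 h 0 to 3.

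Of the changes whose direction turned, L1cam at 1 h alone was called in the main test. With median of ratios these were L1cam at 1 h (0.013), S100b at 6 h (0.0077), Elavl4 at 3 d (-0.0082), Vip in the veh-titled arm (0.20) and S100b for 6 d minus 3 d (-0.0054). With quantile normalization they were Sox10 (-0.077) and Elavl4 (-0.17) at 3 d, Vip in the veh-titled arm (0.086) and Elavl4 for 6 h minus 1 h (-0.10). With the block they were Sox10 at 1 h (0.027), S100b at 6 h (0.024), Elavl4 at 3 d (-0.11), for 6 h minus 1 h (-0.087) and for 6 d minus 3 d (0.047), and Tubb3 for 3 d minus 6 h (-0.083). With a pseudocount of 0.1 they were Uchl1 in the veh-titled arm (-0.044) and Nos2 for 6 d minus 3 d (-0.10), and without small RNA symbols Uchl1 in the veh-titled arm (-0.022). Without both the filter and veh-titled wound 4, tried after seeing the data, Sox10 in that arm was 0.028.

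With 1 library left out, ranges that crossed 0 were S100b at 6 h (-0.13 to 0.022), at 3 d Vip (-0.0026 to 0.54), Sox10 (-0.041 to 0.17) and Elavl4 (-0.11 to 0.12), and at 6 d Elavl4 (-0.14 to 0.0035) and Uchl1 (-0.29 to 0.085). In the veh-titled arm they were Vip (-0.25 to 0.49), Uchl1 (-0.21 to 0.37) and Tubb3 (-0.055 to 0.34). Between the arms they were Gal (-0.38 to 0.18) and Gfap (-0.041 to 0.17) in shams and Nos2 (-0.46 to 0.0042) in wounds. For 6 h minus 1 h they were Gfap (-0.26 to 0.28), Elavl4 (-0.064 to 0.14) and Uchl1 (-0.32 to 0.12), for 3 d minus 6 h Tubb3 (-0.048 to 0.30), and for 6 d minus 3 d S100b (-0.10 to 0.14), Elavl4 (-0.18 to 0.047) and Adcyap1r1 (-0.19 to 0.0018).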
